A study of Mus musculus with 12 samples.

Results

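The 10 genes described here encode the core of the BCL2 family, which sets whether a cell's mitochondria release the proteins that start apoptosis. They are Bcl2, Bcl2l1, Mcl1, Bax, Bak1, Bcl2l11, Bbc3, Pmaip1, Bid and Bad, chosen by name, and all 10 had a row among the 11022 genes of the expression table. Their mRNA was measured by RNA sequencing of 12 CTL cultures (cytotoxic T lymphocytes, the killer T cells), 3 in each of 4 groups. All cells came from adult female LCMV-P14 TCR transgenic mice, whose T cells carry 1 receptor, specific for the gp33-41 peptide of the lymphocytic choriomeningitis virus glycoprotein. They had been primed with that peptide in IL-2 and IL-12 and expanded in IL-2, and all 4 groups were kept in 20 ng/mL IL-2. The Unstimulated group received no further peptide. The TCR group was retriggered with 100 ng/mL gp33-41 for 4 h. The TCR+PI3Kdi group was retriggered in the same way with 10 µM IC87114, an inhibitor of the p110δ catalytic subunit of phosphoinositide 3-kinase (PI3K), and the TCR+MEKi group with 2 µM PD184252, an inhibitor of the kinase MEK, which activates ERK1/2. DMSO was the vehicle control. Lymph nodes or spleens of 3 mice gave the 3 biological replicates, and the CTL were not sorted before RNA extraction, so in these bulk samples fewer cells expressing a gene and less of its RNA per cell cannot be told apart.

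Proteins of this family act in 3 tiers. BCL2, BCL-XL (encoded by Bcl2l1) and MCL1 hold the outer mitochondrial membrane intact, BAX and BAK (Bak1) form pores in it, and the BH3-only proteins BIM (Bcl2l11), PUMA (Bbc3), NOXA (Pmaip1), BID and BAD either occupy the survival proteins or engage BAX and BAK. In T cells the family is known for setting the lifespan of activated cells: IL-2 receptor signals maintain survival proteins, TCR signals induce BCL-XL, and BIM takes part in the death of effector cells after antigen is cleared. Both kinase pathways blocked here are known to reach the family. FOXO transcription factors, which PI3K and AKT keep out of the nucleus, can drive Bcl2l11 and Bbc3, and ERK1/2 phosphorylates BIM protein and marks it for destruction. The data below are mRNA only.

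The 4 members that changed more than 2-fold between some pair of groups, at an adjusted p under 0.05, were Bcl2, Bcl2l1, Bcl2l11 and Bbc3. For each, the 250 bases before a start site are shown on the gene's own strand, from RefSeq sequence on GRCm38.p6. The part of these stretches in the changes was not tested. Capitals mark GTAAACA, a motif bound by FOXO factors, which in the Bbc3 window lies on the other strand and so reads TGTTTAC.
Bcl2, chr1:106714291-106714540, minus strand: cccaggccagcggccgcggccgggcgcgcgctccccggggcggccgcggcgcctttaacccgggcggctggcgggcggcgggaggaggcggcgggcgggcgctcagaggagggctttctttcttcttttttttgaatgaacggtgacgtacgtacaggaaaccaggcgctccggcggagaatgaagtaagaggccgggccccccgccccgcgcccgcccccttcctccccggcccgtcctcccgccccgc
Bcl2l1, chr2:152831729-152831978, minus strand: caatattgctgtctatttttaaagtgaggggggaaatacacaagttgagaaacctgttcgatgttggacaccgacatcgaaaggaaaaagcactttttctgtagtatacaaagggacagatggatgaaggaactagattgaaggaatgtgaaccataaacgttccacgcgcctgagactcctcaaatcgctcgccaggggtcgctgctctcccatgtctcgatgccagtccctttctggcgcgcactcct
Bcl2l11, chr2:128125788-128126037, plus strand: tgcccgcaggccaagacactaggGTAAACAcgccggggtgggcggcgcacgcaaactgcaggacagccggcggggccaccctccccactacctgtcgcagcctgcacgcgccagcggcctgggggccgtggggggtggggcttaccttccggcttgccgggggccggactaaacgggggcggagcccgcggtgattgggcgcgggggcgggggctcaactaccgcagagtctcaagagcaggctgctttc
Bbc3, chr7:16310011-16310260, plus strand: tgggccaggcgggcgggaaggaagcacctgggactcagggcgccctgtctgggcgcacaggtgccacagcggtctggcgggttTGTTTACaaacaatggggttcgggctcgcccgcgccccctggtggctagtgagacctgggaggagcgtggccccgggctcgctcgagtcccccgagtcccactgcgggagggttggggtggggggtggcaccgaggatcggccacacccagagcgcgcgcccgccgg
The Bcl2 window was 74.8% G and C, against 47.6% for the outermost Bcl2l1 window, which lies just upstream of the annotated gene. In the Bcl2l11 window the motif ended 220 bases before the start. In the Bbc3 window, which lies before an internal start of the gene, it ended 160 bases before it. Bcl2l11 and Bbc3 are thus shown by the window that holds GTAAACA. Their other windows, before further start sites, lack it and are not shown. Windows were at hand for 9 of the 10 members, with several windows for some members. Both strands of each were searched for 6 motifs: GTAAACA, present in 3.17% of 32851 windows of 250 bases over all genes, TGACTCA (AP-1, 4.46%), CACGTG (E-box, 6.02%), TTCNNNGAA (STAT, 7.02%), CCGGAAGT (ETS, 2.88%) and TGACGTCA (CRE, 1.55%). An E-box stood 3 bases before the Bax start and another 58 bases before a further Bbc3 start. No other match was found in the members' windows. The percentages are shares of windows and not of genes. A match is a description of the letters and not a bound site.

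Expression is given as FPKM, fragments per kilobase of transcript, scaled to sequencing depth, which the authors also scaled between libraries by TMM (trimmed mean of M values), so levels of different genes can be set side by side per length. Differences were tested by limma on log2(FPKM + 0.1) over all 12 cultures with Benjamini-Hochberg adjustment over the 11022 genes. A gene is said to rise, fall or change where the adjusted p is under 0.05, and to be called where the change is also more than 2-fold on that scale. Effective depth, read from how far apart the lowest FPKM values of a library lie, ran from 7820000 reads in TCR+MEKi replicate 1 to 13180000 in Unstimulated replicate 3. At such depths Bbc3 rested on about 41 to 156 reads per culture and Bad on 67 to 252, while each of the other 8 members had 415 or more. The cultures had the profile of CTL: all 8 CTL marker genes listed for the check had a row, Gzmb ran from 8279 to 13582 FPKM and Cd8a from 213 to 430 FPKM. Of 19 markers of other cell types, 16 had no row, among them those of B cells (Cd79a, Cd79b) and granulocytes (S100a8), and the summed FPKM of Cd4, Itgax and Klrb1c, which had one, was 5.51 to 7.67 in Unstimulated, 4.93 to 5.07 in TCR, 5.05 to 6.68 in TCR+PI3Kdi and 2.14 to 2.97 in TCR+MEKi. Within that sum Cd4 had means of 0.77, 2.69, 2.94 and 0.45 FPKM and Klrb1c of 5.39, 1.79, 2.27 and 1.59 in the same order of groups, Cd4 being called higher and Klrb1c called lower with TCR, and Cd4 called lower with the MEK inhibitor than with TCR. The part of these low levels in the results was not tested. FPKM added up to 495945 or less over all genes in Unstimulated cultures and to 620715 or more in TCR cultures, so dividing each culture by its own sum (a TPM scale) moved the median gene. On that scale the median was -0.41 (log2) for TCR against Unstimulated, 0.19 for TCR+PI3Kdi against TCR, 0.26 for TCR+MEKi against TCR and 0.07 for TCR+MEKi against TCR+PI3Kdi. Without that step the 4 medians were -0.01, 0.02, 0.01 and -0.01, and changes below are relative to these unless the TPM scale is named.

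Retriggering of the TCR changed 9 of the 10 members, the exception being Bbc3. Bcl2l11, Bcl2l1, Mcl1, Bid and Pmaip1 rose and Bcl2, Bak1, Bad and Bax fell. Over all genes 33.6% rose and 34.9% fell, so most genes of the table changed too. Bcl2l11 and Bcl2l1 were called higher and Bcl2 called lower, against 8.87% and 11.1% of all genes. The median change of the members was 0.27 (log2), against -0.01 for all genes. On the TPM scale 3 members rose and 4 fell, and 2 were called higher and 3 lower. The median of all genes was itself -0.41 on that scale, and the shares of all genes there are not given.

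With PI3K p110δ inhibited during the 4 h, Bcl2l1, Bbc3 and Bid fell below the TCR level and Bcl2 and Pmaip1 rose above it, 5 of 10 members, or 3 without TCR+PI3Kdi replicate 2. All of the 5 changes were under 2-fold, and over all genes 12.7% rose and 12.8% fell. None of the 10 was called by limma, where 0.499% of all genes were called higher and 1.38% lower, and 5 members had an unadjusted p under 0.05. The members' median change was -0.04, against 0.02 for all genes. On the TPM scale 4 rose and 2 fell, where the median of all genes was 0.19 and the shares of all genes are not given.

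With MEK inhibited, Bcl2, Bak1, Bcl2l11, Bbc3 and Pmaip1 rose above the TCR level and Bcl2l1 fell below it, 6 of 10 members. Over all genes 18.9% rose and 18.2% fell. Again no member was called by limma, where 0.98% of all genes were called higher and 2.51% lower, and 6 members had an unadjusted p under 0.05. The members' median change was 0.33, against 0.01 for all genes, and on the TPM scale 9 members rose, none fell and Bbc3 was called higher. The median of all genes was itself 0.26 on the TPM scale, so more genes lie above 0 there, and their shares are not given. Set directly against each other, the inhibitors differed for 7 members, Bcl2l1, Bax, Bak1, Bcl2l11, Bbc3, Pmaip1 and Bid, and all 7 were higher with the MEK inhibitor, where 14.5% of all genes were higher and 14.4% lower. Bbc3 was called higher, as were 1.39% of genes, and no member was called lower, against 1.71% of genes. The 3 comparisons with the TCR or TCR+PI3Kdi groups share cultures, so their values are given side by side and not as independent counts.

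**Figure D1:**
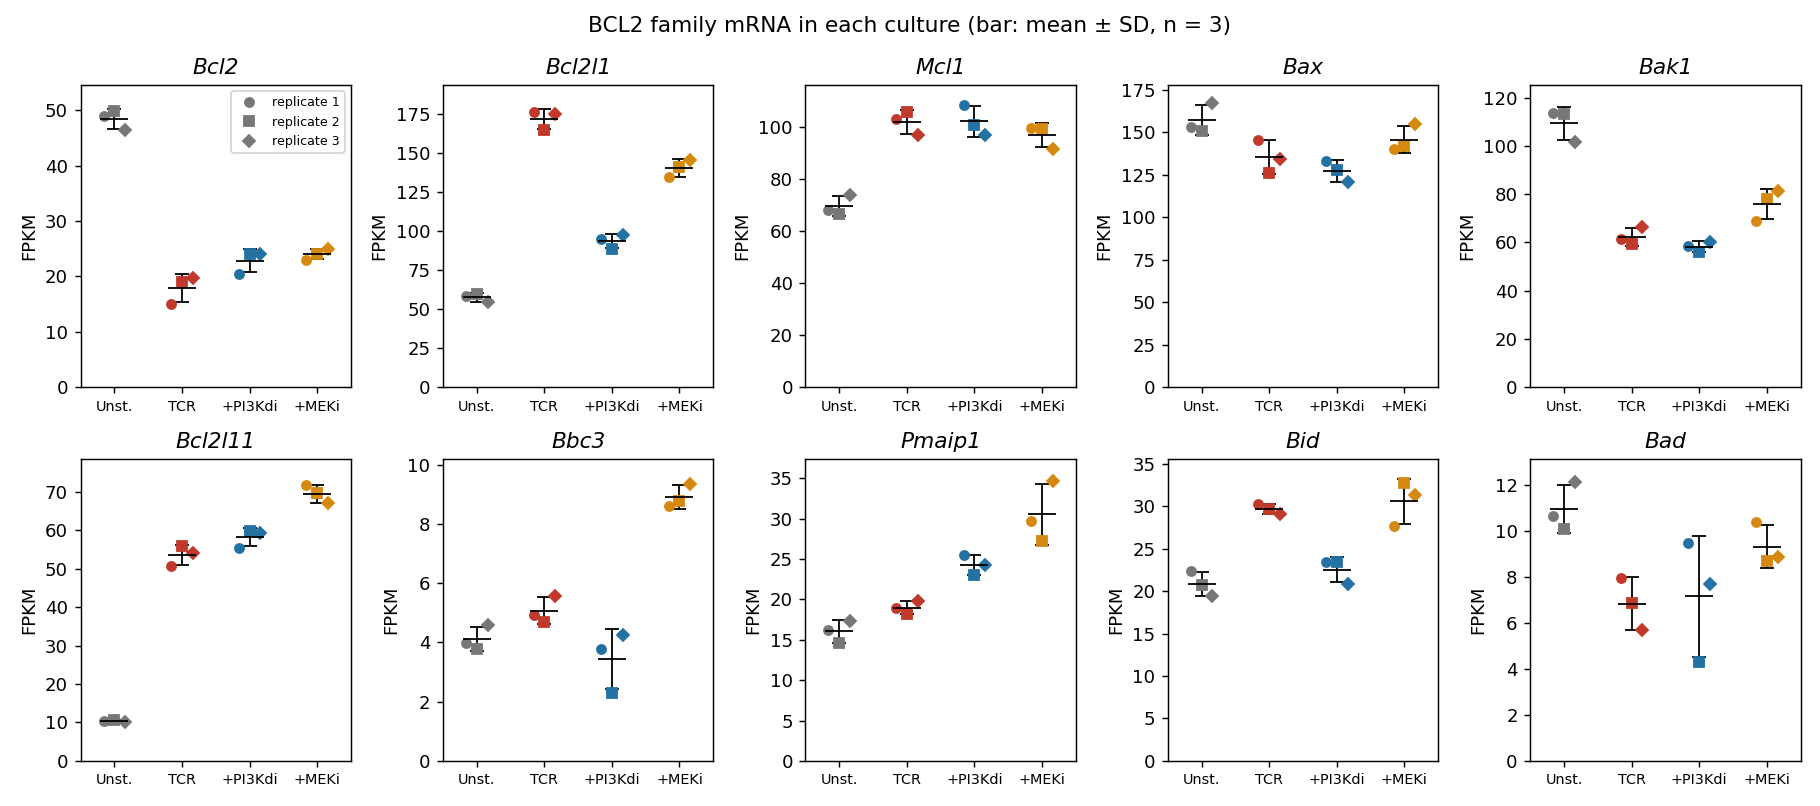
FPKM (y axis, from 0) of each BCL2 family member in the 3 cultures of each group (x axis), with markers for the replicates and a bar for the mean ± SD. Bcl2 stood between 46.5 and 49.9 FPKM without peptide and at 24.9 FPKM or less in the other 9 cultures, while Bcl2l11 stood between 10.0 and 10.5 FPKM without peptide and at 50.9 FPKM or more in the others.

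Among the survival genes, Bcl2 (chr1:106538178-106714274, minus strand, GRCm38 with GENCODE M21 annotation) was the member that fell most on retriggering. The Unstimulated cultures held 49.0, 49.9 and 46.5 FPKM, the TCR cultures 15.02, 18.95 and 19.78, the TCR+PI3Kdi cultures 20.4, 24.1 and 24.0 and the TCR+MEKi cultures 23.1, 24.0 and 24.9. The TCR group was below the Unstimulated group with no overlap, and both inhibitor groups were a little above the TCR group, also without overlap. Bcl2 fell by 1.44 on the log2 scale with TCR (SE 0.09, adjusted p = 3.10e-09, limma), to 37.0% of the unstimulated mean. It then stood 0.35 above the TCR level with the PI3K inhibitor (SE 0.09, adjusted p = 0.0119) and 0.43 above it in TCR+MEKi cultures (SE 0.09, adjusted p = 0.00239). Without TCR+PI3Kdi replicate 2 or replicate 3 the first of these changes had an adjusted p of 0.0512 or 0.0503. With either inhibitor most of the fall remained: 83.9% of the TCR change in mean FPKM under IC87114 and 80.1% under PD184252. The inhibitors differed by 0.08 (95% interval -0.12 to 0.27, adjusted p = 0.58). An antisense transcript, D630008O14Rik, overlaps 558 of the 9157 exon bases of Bcl2 and had no row of its own.

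Bcl2l1 (chr2:152780668-152831728, minus strand), which encodes BCL-XL, moved the other way. It was at 58.3, 59.6 and 54.5 FPKM in the Unstimulated cultures, 176, 164 and 175 in TCR, 94.96, 88.56 and 97.26 in TCR+PI3Kdi and 135, 141 and 146 in TCR+MEKi. The 4 groups did not overlap, in the order Unstimulated, TCR+PI3Kdi, TCR+MEKi, TCR. The rise with TCR was 1.58 on the log2 scale (SE 0.06, adjusted p = 3.00e-12). Among the members, the PI3K inhibitor had its largest effect here: Bcl2l1 fell by 0.88 from the TCR level (SE 0.06, adjusted p = 1.24e-07), to 54.5% of the TCR mean. The MEK inhibitor lowered it by 0.29 (log2 change -0.29, SE 0.06, adjusted p = 0.000945), which the TPM scale made -0.03 (adjusted p = 0.69). Of the TCR rise in mean FPKM, 31.6% was left under IC87114 and 72.5% under PD184252, and the direct difference between them was 0.58 (SE 0.06, adjusted p = 2.35e-06). With the PI3K inhibitor Bcl2l1 was still 0.70 above the Unstimulated level (SE 0.06, adjusted p = 4.33e-08).

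Mcl1 (chr3:95658788-95663176, plus strand) encodes a short-lived survival protein that T cells need at most stages. Its levels were 68.1, 66.7 and 73.8 FPKM in Unstimulated, 103, 106 and 96.8 in TCR, 108, 101 and 97.0 in TCR+PI3Kdi and 99.7, 99.4 and 91.6 in TCR+MEKi cultures. All 9 retriggered cultures were above all Unstimulated ones, and the 3 retriggered groups overlapped. Mcl1 rose by 0.55 on the log2 scale with TCR (SE 0.06, adjusted p = 1.16e-06). Neither inhibitor gave a difference past the threshold: 0.0027 with the PI3K inhibitor (95% interval -0.13 to 0.13, adjusted p = 0.98) and -0.07 with the MEK inhibitor (-0.20 to 0.06, adjusted p = 0.38). On the TPM scale the values were 0.18 and 0.19, with adjusted p of 0.0179 and 0.010, the direction with the MEK inhibitor being turned.

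Of the pore-forming genes, Bax (chr7:45461697-45466898, minus strand) was at 153, 151 and 167 FPKM in Unstimulated, 146, 126 and 134 in TCR, 133, 128 and 121 in TCR+PI3Kdi and 140, 142 and 155 in TCR+MEKi cultures. The TCR cultures were all below the Unstimulated ones, by 0.21 on the log2 scale (log2 change -0.21, SE 0.07, adjusted p = 0.00913). Against TCR, the inhibitors gave -0.09 (PI3K, adjusted p = 0.34, and 0.09 on the TPM scale) and 0.11 (MEK, adjusted p = 0.22, and 0.37 with adjusted p = 2.90e-05 on the TPM scale). Bax was 0.20 higher in TCR+MEKi than in TCR+PI3Kdi cultures (SE 0.07, adjusted p = 0.0353), a change lost without any of 4 libraries, replicates 2 and 3 of either group, where it was 0.15 to 0.21 with an adjusted p of 0.0536 to 0.153. Gm45808, on the same strand and with no row, overlaps 192 of the 1576 exon bases of Bax.

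Bak1 (chr17:27019810-27029009, minus strand) fell clearly. It held 114, 113 and 102 FPKM in Unstimulated, 61.5, 59.2 and 66.5 in TCR, 58.5, 56.1 and 60.3 in TCR+PI3Kdi and 69.0, 77.8 and 81.2 in TCR+MEKi cultures. Unstimulated cultures stood far above the rest, TCR and TCR+PI3Kdi overlapped, and TCR+MEKi lay between. The fall with TCR was to 57.0% of the unstimulated mean (log2 change -0.81, SE 0.07, adjusted p = 7.08e-08), more than 2-fold on the TPM scale at -1.22. Bak1 was 0.28 above TCR with the MEK inhibitor (SE 0.07, adjusted p = 0.00521), while with the PI3K inhibitor the difference was -0.10 (95% interval -0.24 to 0.05, adjusted p = 0.33, and 0.09 on the TPM scale). A neighbour on the other strand, Ggnbp1, with no row, overlaps 614 of the 2407 exon bases of Bak1.

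**Figure D2:**
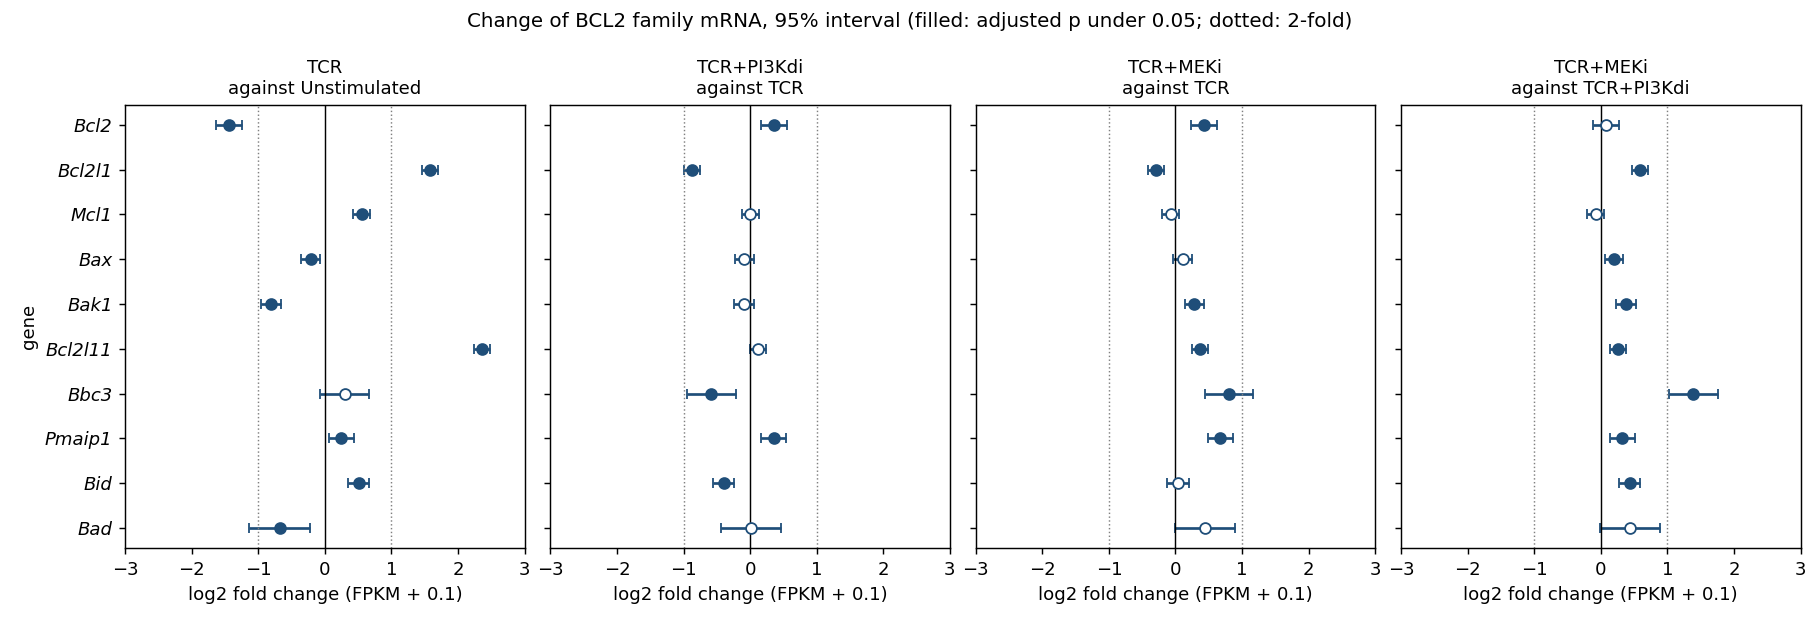
Log2 fold change of each member on the log2(FPKM + 0.1) scale (x axis) for 4 comparisons, with the 95% interval. Filled points have an adjusted p under 0.05 and dotted lines mark a 2-fold change. Retriggering moved Bcl2l11 by 2.36 and Bcl2 by -1.44, and in the comparison of the inhibitors the 7 filled points all lie to the right of 0.

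Of the BH3-only genes, Bcl2l11 (chr2:128126038-128162547, plus strand), encoding BIM, rose most. The Unstimulated cultures held 10.5, 10.5 and 10.0 FPKM, the TCR cultures 50.9, 56.0 and 54.2, the TCR+PI3Kdi cultures 55.5, 59.8 and 59.4 and the TCR+MEKi cultures 71.7, 69.7 and 67.1. Retriggered cultures were all far above Unstimulated ones, and TCR+MEKi cultures were above all others. Bcl2l11 rose by 2.36 on the log2 scale with TCR (SE 0.06, adjusted p = 3.01e-14), which took it from the 49.0 to the 85.6 percentile of all genes by mean FPKM. The MEK inhibitor added 0.37 (SE 0.06, adjusted p = 0.000128). With the PI3K inhibitor the difference from TCR was 0.12 (95% interval -0.000183 to 0.24, adjusted p = 0.13), while it was 0.30 on the TPM scale (adjusted p = 0.00581) and 0.19 by quantile normalisation (adjusted p = 0.0337). The inhibitors differed by 0.25 (SE 0.06, adjusted p = 0.00304). In FPKM the change from Unstimulated was 111% of the TCR change under IC87114 and 137% under PD184252.

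Bbc3 (chr7:16308393-16318205, plus strand), encoding PUMA, had the lowest mean level of the members in every group. It was at 3.97, 3.79 and 4.57 FPKM in Unstimulated, 4.93, 4.69 and 5.57 in TCR, 3.79, 2.30 and 4.25 in TCR+PI3Kdi and 8.60, 8.78 and 9.36 in TCR+MEKi cultures. The TCR+MEKi cultures lay above all other cultures and did not overlap with them. Bbc3 was 0.81 above TCR with the MEK inhibitor (SE 0.17, adjusted p = 0.00204) and 1.39 above TCR+PI3Kdi (SE 0.17, adjusted p = 2.73e-05). Against Unstimulated it was 1.10 higher with TCR and MEK inhibitor together (SE 0.17, adjusted p = 5.75e-05), and 0.30 higher with TCR alone (95% interval -0.07 to 0.66, adjusted p = 0.14, and -0.11 on the TPM scale). The fall of 0.58 with the PI3K inhibitor (log2 change -0.58, SE 0.17, adjusted p = 0.0213) rested in part on 1 culture. TCR+PI3Kdi replicate 2 held about 41 reads of Bbc3, whose counting interval ran from 1.65 to 3.12 FPKM, and without it the change was -0.32 (adjusted p = 0.0683). The threshold was also missed without TCR replicate 3, at -0.51 (adjusted p = 0.0760), and on the TPM scale, at -0.40 (adjusted p = 0.0648). The transcript is 65.2% G and C, above 99.8% of genes, and in that culture the deviation of genes from the group mean correlated with their G and C content at r = -0.429 across 9110 genes, which are not independent, so genes rich in G and C stood low there. TCR replicate 2 had r = -0.411 and TCR replicate 1 had 0.375. Bax (63.5% G and C, above 99.5% of genes), Bad (57.1%, above 88.2%) and Bak1 (57.1%, above 88.1%) were also rich in G and C. The part of base composition in the results of Bbc3 and of these 3 members was not tested.

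Pmaip1, on chromosome 18 and encoding NOXA, a partner of MCL1, climbed in steps. It held 16.2, 14.6 and 17.3 FPKM in Unstimulated, 19.0, 18.3 and 19.8 in TCR, 25.5, 23.1 and 24.3 in TCR+PI3Kdi and 29.8, 27.3 and 34.7 in TCR+MEKi cultures. None of the 4 groups overlapped with another. The step from Unstimulated to TCR was 0.25 (SE 0.09, adjusted p = 0.0203), but it turned to -0.16 on the TPM scale (adjusted p = 0.0901) and missed the threshold without Unstimulated replicate 2, at 0.18 (adjusted p = 0.101), or TCR replicate 3, at 0.22 (adjusted p = 0.0695). The PI3K inhibitor raised Pmaip1 by 0.35 (SE 0.09, adjusted p = 0.00802) and the MEK inhibitor by 0.68 (SE 0.09, adjusted p = 3.44e-05). They differed by 0.32 (SE 0.09, adjusted p = 0.0113), which was 0.23 (adjusted p = 0.0668) without TCR+MEKi replicate 3.

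Bid (chr6:120891930-120916853, minus strand) links caspase-8 at death receptors to mitochondria. It was at 22.3, 20.7 and 19.5 FPKM in Unstimulated, 30.2, 29.7 and 29.1 in TCR, 23.4, 23.4 and 20.8 in TCR+PI3Kdi and 27.6, 32.8 and 31.3 in TCR+MEKi cultures. The PI3K inhibitor group overlapped with the Unstimulated group and the MEK inhibitor group with the TCR group. Bid rose by 0.51 with TCR (SE 0.07, adjusted p = 2.35e-05, and 0.10 with adjusted p = 0.26 on the TPM scale). The PI3K inhibitor lowered it by 0.40 (log2 change -0.40, SE 0.07, adjusted p = 0.00141), leaving 19.3% of the TCR rise in mean FPKM, and with it Bid was 0.11 from the Unstimulated level (95% interval -0.05 to 0.27, adjusted p = 0.20). With the MEK inhibitor the difference from TCR was 0.04 (-0.12 to 0.20, adjusted p = 0.71, and 0.30 with adjusted p = 0.00410 on the TPM scale). The direct difference between the inhibitors was 0.44 (SE 0.07, adjusted p = 0.000482). Bcl2l13, on the other strand, shares 628 of the 3550 exon bases of Bid.

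Bad (chr19:6941861-6951899, plus strand), a BH3-only gene whose protein AKT is known to hold inactive by phosphorylation, fell. Its levels were 10.7, 10.1 and 12.1 FPKM in Unstimulated, 7.98, 6.87 and 5.69 in TCR, 9.50, 4.31 and 7.70 in TCR+PI3Kdi and 10.4, 8.71 and 8.89 in TCR+MEKi cultures. The spread in the TCR+PI3Kdi group covered the whole TCR group. Bad fell by 0.68 on the log2 scale with TCR (SE 0.21, adjusted p = 0.010), and by more than 2-fold on the TPM scale, where the log2 change was -1.09. Differences from TCR were 0.01 with the PI3K inhibitor (95% interval -0.45 to 0.46, adjusted p = 0.99) and 0.45 with the MEK inhibitor (-0.0016 to 0.90, adjusted p = 0.11, and 0.71 with adjusted p = 0.00626 on the TPM scale), so changes of some size in either direction were not detectable. TCR+PI3Kdi replicate 2, low for Bbc3, was low here too, at about 67 reads. Between the inhibitors the difference was 0.44 (adjusted p = 0.13), and 0.68 (adjusted p = 0.0192) without TCR+PI3Kdi replicate 1. Gpr137, on the other strand, shares 524 of the 2558 exon bases of Bad, and whether reads were counted by strand is not given in the sources used here.

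The order of the members per length was led by the pore-forming genes before retriggering. In Unstimulated cultures the mean levels ran from Bax (157 FPKM) through Bak1 (109.5), Mcl1 (69.5), Bcl2l1 (57.5), Bcl2 (48.5), Bid (20.8), Pmaip1 (16.04), Bad (10.97) and Bcl2l11 (10.3) to Bbc3 (4.11), and only Bad and Bcl2l11 of these neighbours overlapped. After retriggering Bcl2l1 came first at 172 ± 6.40 FPKM (SD, n = 3), Bcl2l11 moved up from rank 9 to rank 5 at 53.7 ± 2.60 and Bcl2 down from rank 5 to rank 8 at 17.9 ± 2.54, where it overlapped with Pmaip1. In TCR+PI3Kdi cultures Bax (127 FPKM) led again, followed by Mcl1 (102) and Bcl2l1 (93.6), the last pair overlapping. In TCR+MEKi cultures Bax (146 FPKM) and Bcl2l1 (140) led and overlapped.

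Ratios between members within a culture do not depend on how libraries were scaled. Bcl2l1 stood to Bcl2 as 1.18 ± 0.012 (SD, n = 3) in Unstimulated cultures, as 9.74 ± 1.72 in TCR, 4.13 ± 0.49 in TCR+PI3Kdi and 5.84 ± 0.012 in TCR+MEKi. The single cultures gave 1.19, 1.19 and 1.17, then 11.7, 8.67 and 8.83, then 4.65, 3.67 and 4.06, then 5.83, 5.86 and 5.84. None of the groups overlapped, and both inhibitors left the ratio between the Unstimulated and the TCR values. Among the 3 survival members the make-up therefore shifted: Bcl2 was 27.6% ± 0.91 of the summed FPKM of Bcl2, Bcl2l1 and Mcl1 in Unstimulated cultures and 6.15% ± 0.91 in TCR cultures, while Bcl2l1 went from 32.7% ± 1.40 to 58.9% ± 1.75. The survival genes Bcl2a1b and Bcl2a1d are outside these shares, which are therefore not shares of all survival mRNA. Their summed FPKM was 23.5 ± 2.54 in Unstimulated, 434 ± 23.1 in TCR, 307 ± 28.0 in TCR+PI3Kdi and 186 ± 16.2 in TCR+MEKi cultures. With the PI3K inhibitor Mcl1, at 46.7% ± 2.06, had a mean share above that of Bcl2l1, at 42.8% ± 1.59. With the MEK inhibitor Bcl2l1 kept 53.7% ± 1.67.

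Bcl2l11 gained with TCR on each of the 3 survival members, but not on the survival genes Bcl2a1b and Bcl2a1d, to whose summed FPKM it stood as 0.44 ± 0.059 (SD, n = 3) in Unstimulated and 0.12 ± 0.011 in TCR cultures. The Bcl2l11 to Bcl2 ratio was 0.21 ± 0.0026 in Unstimulated, 3.03 ± 0.33 in TCR, 2.56 ± 0.14 in TCR+PI3Kdi and 2.90 ± 0.21 in TCR+MEKi cultures. The rise of Bcl2l1 made up part of that against BCL-XL, where the Bcl2l11 to Bcl2l1 ratio was 0.18 ± 0.0039, 0.31 ± 0.026, 0.62 ± 0.047 and 0.50 ± 0.036 in the same order. Every inhibitor-treated culture, at 0.46 or more, was above every TCR culture, at 0.34 or less. Against Mcl1 the ratio was 0.15 ± 0.012, 0.53 ± 0.033, 0.57 ± 0.053 and 0.72 ± 0.016. Summed over members, survival mRNA was 175 ± 0.74 FPKM in Unstimulated, 292 ± 2.64 in TCR, 219 ± 5.19 in TCR+PI3Kdi and 261 ± 3.55 in TCR+MEKi cultures, and BH3-only mRNA was 62.3 ± 2.24, 114 ± 1.26, 116 ± 2.50 and 149 ± 2.15. The first sum over the second was thus 2.82 ± 0.11 without peptide, 2.55 ± 0.051 with TCR, 1.89 ± 0.014 in TCR+PI3Kdi and 1.76 ± 0.035 in TCR+MEKi cultures. Every inhibitor-treated culture was below every TCR culture in this ratio and in the survival sum, and the TCR+MEKi cultures were also above every TCR culture in the BH3-only sum. The ratio depends on which survival genes enter it. With Bcl2a1b and Bcl2a1d, which encode the survival protein A1 and are no members, added to the survival sum (a choice made after seeing the data), that sum was 199 ± 2.54, 726 ± 24.2, 526 ± 23.9 and 447 ± 19.7 FPKM in Unstimulated, TCR, TCR+PI3Kdi and TCR+MEKi cultures, and its ratio to the BH3-only sum was 3.20 ± 0.14, 6.35 ± 0.25, 4.55 ± 0.30 and 3.00 ± 0.13. Counted so, the ratio was higher with TCR than without peptide, where the 3 survival members alone gave a lower one, and the survival sum was lower in TCR+MEKi than in TCR+PI3Kdi cultures, where the members alone gave the opposite order. These ratios are descriptions over 3 cultures each, with no test, and FPKM sums are not amounts of protein. Those with Bcl2a1b and Bcl2a1d also carry the uncertainty of exon sequence that these genes share with others of their cluster.

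**Figure D3:**
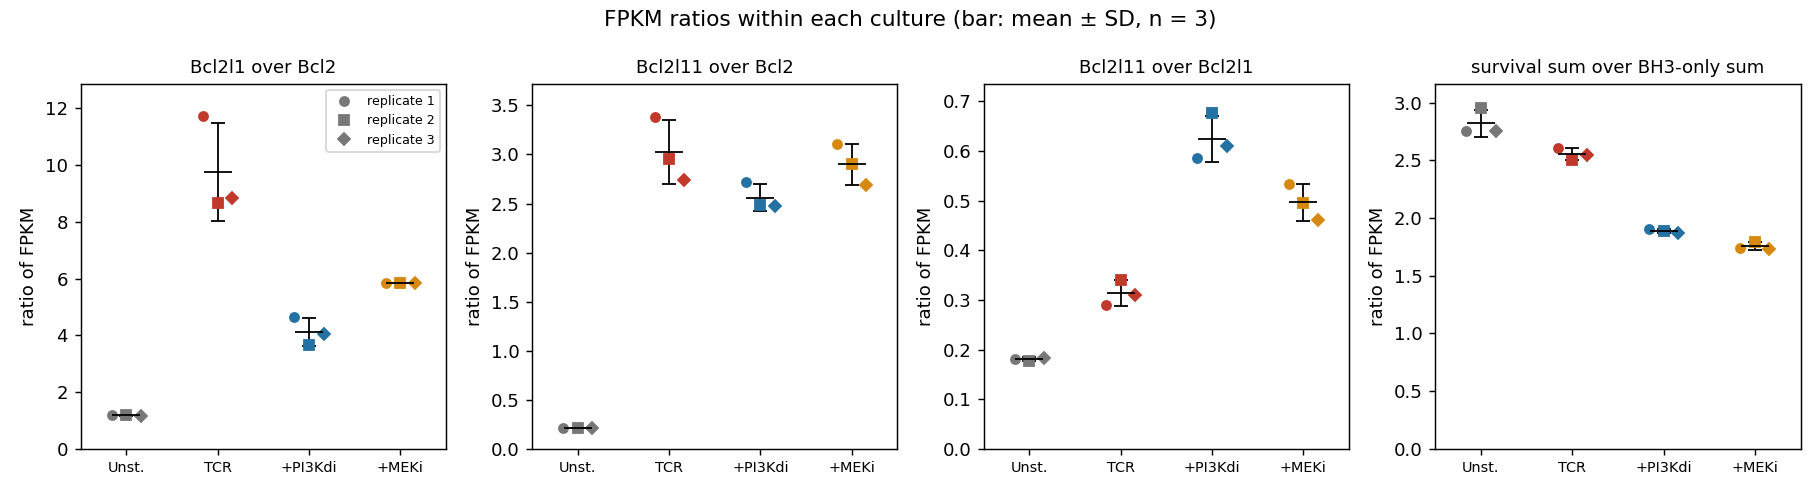
Ratios of FPKM within each culture (y axes, from 0) for Bcl2l1 over Bcl2, Bcl2l11 over Bcl2, Bcl2l11 over Bcl2l1 and the summed survival genes over the summed BH3-only genes, by group (x axis), with a bar for the mean ± SD. The Bcl2l11 to Bcl2l1 ratio was 0.18 without peptide, 0.31 with TCR, 0.62 in TCR+PI3Kdi and 0.50 in TCR+MEKi cultures.

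For the 4 called members, the genes with the most similar pattern were taken by Pearson r of log2(FPKM + 0.1) over the 12 cultures, among 9899 genes with a mean of at least 1 FPKM. The cultures form 4 groups, so r follows the group means. Bcl2 was most like Rbl1 (r = 0.996), Wnk1 and Top2a (both 0.995). Bcl2l1 was most like Nfkbid (0.991), Ppan and Zc3h12a (both 0.990). Bcl2l11 was most like Klf9 and Srgap3 (both 0.992) and Spag9 (0.991). For Bbc3 the highest values were lower, with Agap3 at 0.981, Rcc2 at 0.960 and Ptpn6 at 0.939. Bbc3 also had the fewest reads of the 4, about 41 to 156 per culture. The part of counting error in these values was not tested.

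Beyond the 10 members, 10 of 17 other BCL2 family genes had a row. With TCR 3 of these rose, 3 fell and 4 did not pass, with a median of 0.13 against -0.01 for all genes. Over all genes 33.6% rose and 34.9% fell. Bcl2a1b and Bcl2a1d, which encode the survival protein A1, rose by 3.99 (SE 0.09, adjusted p = 1.68e-14) and 4.67 (SE 0.10, adjusted p = 7.27e-15), more than any of the 10 members. Bcl2a1b went from 17.2 ± 1.76 to 274 ± 16.5 FPKM and Bcl2a1d from 6.22 ± 0.78 to 160 ± 11.4 FPKM (SD, n = 3). The MEK inhibitor lowered them by 1.13 and 1.40 (log2 changes -1.13 and -1.40, adjusted p = 2.70e-07 and 8.12e-08) to 125 ± 10.2 and 60.7 ± 6.06 FPKM, and the PI3K inhibitor gave -0.46 and -0.58 (adjusted p = 0.00172 and 0.000508). These copies of one gene are uncertain one by one, since 56.8% and 54.7% of the stretches of 100 bases in their exons occur in another gene of the cluster. Those other genes include Bcl2a1a and Gm29094, so the sum of Bcl2a1b and Bcl2a1d is uncertain too. Bnip3, a mitophagy gene, fell by 1.81 with TCR (log2 change -1.81, SE 0.08, adjusted p = 4.38e-11), from 82.8 ± 4.93 to 23.6 ± 1.14 FPKM. Bmf, a BH3-only gene, was 1.03 higher with the MEK inhibitor than with TCR (SE 0.29, adjusted p = 0.0131), but at 0.69 ± 0.22 against 0.28 ± 0.05 FPKM it was close to the level of 3 reads on 1 kb of transcript, 0.228 to 0.384 FPKM.

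Downstream of mitochondria, the 19 listed genes of the mitochondrial death pathway all had a row, and with TCR 5 rose and 10 fell. Over all genes 33.6% rose and 34.9% fell with TCR. The median of the list was -0.22 against -0.01 for all genes (-0.63 against -0.41 on the TPM scale). The called ones were Apaf1, the scaffold of the apoptosome, at -1.61 (SE 0.08, adjusted p = 1.29e-10) and Casp9, the caspase it activates, at -1.15 (SE 0.17, adjusted p = 3.36e-05). In FPKM Apaf1 went from 17.9 ± 0.31 to 5.81 ± 0.29, and stood at 9.20 ± 0.76 in TCR+PI3Kdi and 10.6 ± 0.51 in TCR+MEKi cultures. Each inhibitor raised 4 of the 19 above TCR and lowered none. Of all genes 12.7% rose and 12.8% fell under IC87114, and 18.9% rose and 18.2% fell under PD184252. Apaf1 was among both sets, at 0.65 (SE 0.08, adjusted p = 4.66e-05) and 0.86 (SE 0.08, adjusted p = 1.35e-06). The others were Casp9, Casp2 and Xiap under IC87114 and Htra2, Birc2 and Birc3 under PD184252. Xiap, Birc2 and Birc3 belong to the inhibitor of apoptosis family, so the counts are not of death-promoting genes alone. The 2 sets share the TCR cultures.

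In the death receptor list, all 14 genes had a row, and with TCR 6 rose and 7 fell around a median of -0.13. Over all genes 33.6% rose and 34.9% fell with TCR, around a median of -0.01. Cflar, which encodes the caspase-8 inhibitor c-FLIP, rose by 1.58 (SE 0.07, adjusted p = 4.90e-11) and Fas by 1.11 (SE 0.14, adjusted p = 5.84e-06), while the necroptosis genes Mlkl and Ripk3 fell, with log2 changes of -1.13 (SE 0.06, adjusted p = 8.60e-10) and -1.04 (SE 0.11, adjusted p = 6.47e-07). The PI3K inhibitor raised 2 and lowered 1 of the 14, where 12.7% of all genes rose and 12.8% fell. The MEK inhibitor raised 3 and lowered 3 of the 14, where 18.9% of all genes rose and 18.2% fell. None of these changes in the list was more than 2-fold.

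Regulators of the family were covered by a list of 15, all with a row. With TCR 7 rose and 2 fell, the called ones being Stat5a at 3.40, Ddit3 at 1.84, Stat5b at 1.41, Myc at 1.22, Pim2 at 1.14 and E2f1 at -1.32, with adjusted p from 3.51e-16 to 1.64e-08. STAT5 carries the IL-2 signal to survival genes. Stat5a went from 11.7 ± 0.62 to 124 ± 4.00 FPKM and was at 62.2 ± 2.80 with the PI3K inhibitor. That inhibitor lowered 4 of the 15 and raised none, and the MEK inhibitor raised 4 and lowered 3. Of all genes 12.7% rose and 12.8% fell with the PI3K inhibitor, and 18.9% rose and 18.2% fell with the MEK inhibitor. With TCR 33.6% of all genes rose and 34.9% fell, and 8.87% were called higher and 11.1% called lower.

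Other targets of p53, a factor known to drive Bbc3, Pmaip1 and Bax, moved in both directions. Of 11 genes, 6 rose and 4 fell with TCR, around a median of 0.19, with Perp at 2.86 (SE 0.10, adjusted p = 3.79e-12) and Sesn2 at 1.31 (SE 0.07, adjusted p = 3.58e-10) above, and Trp53inp1 at -1.38 (SE 0.13, adjusted p = 2.55e-07) and Phlda3 at -1.16 (SE 0.14, adjusted p = 3.18e-06) below. With the PI3K inhibitor 2 rose and 3 fell, and Trp53inp1 rose by 1.64 (SE 0.13, adjusted p = 1.09e-06), from 5.13 ± 1.06 to 16.03 ± 1.23 FPKM. With the MEK inhibitor 5 rose and 2 fell, all under 2-fold. Of all genes 33.6% rose and 34.9% fell with TCR, around a median of -0.01. With the PI3K inhibitor 12.7% of all genes rose and 12.8% fell, and with the MEK inhibitor 18.9% rose and 18.2% fell. Tnfrsf10b is counted both here and in the death receptor list.

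**Figure D4:**
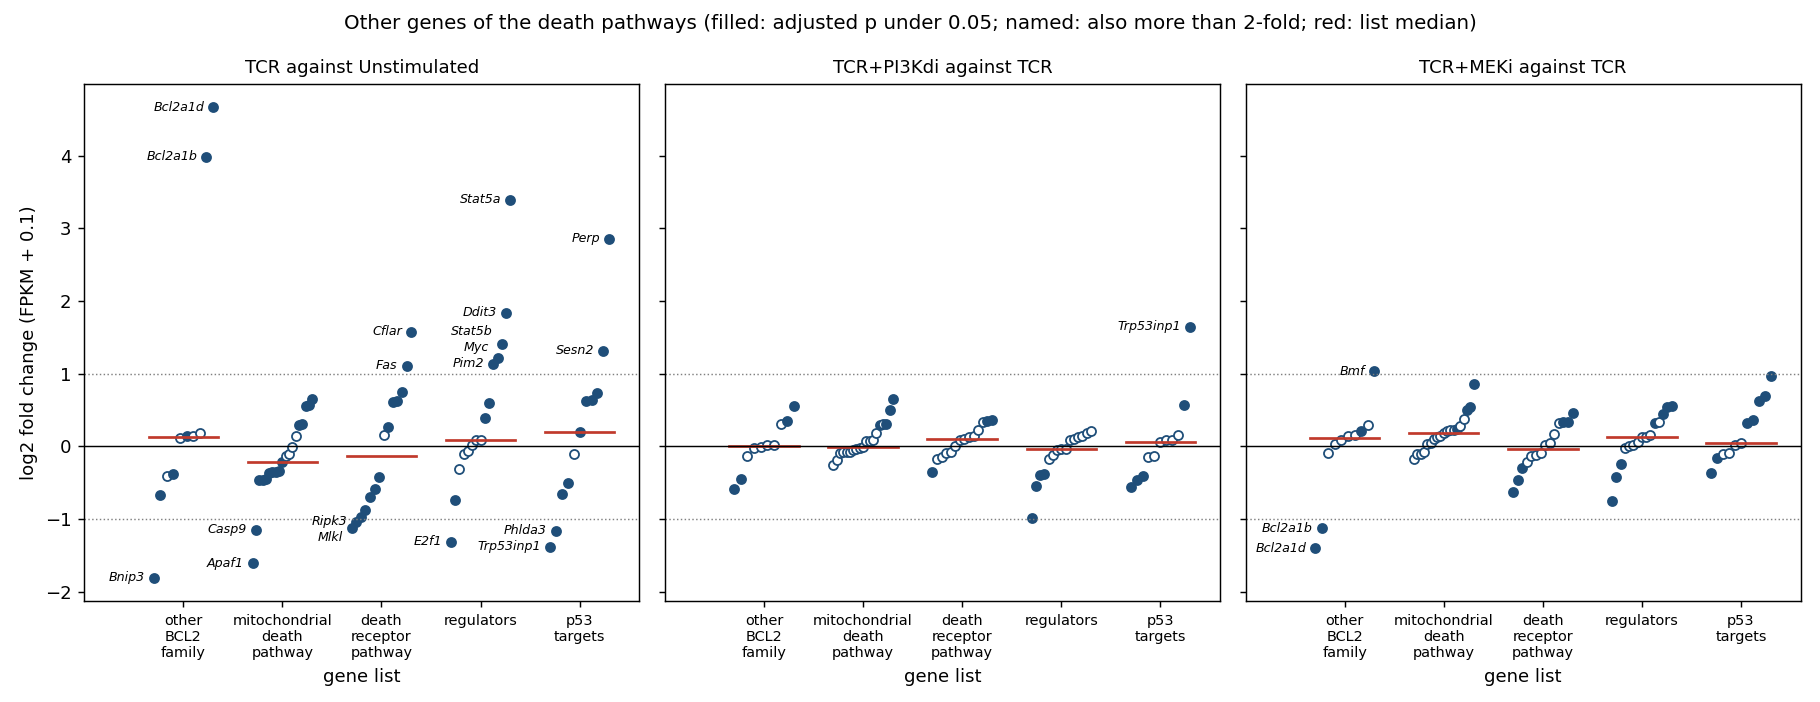
Log2 fold change on the log2(FPKM + 0.1) scale (y axis) of the genes in 5 other lists (x axis) for 3 comparisons, with filled points at an adjusted p under 0.05, names at more than 2-fold as well, and a red line at each list's median. The Bcl2a1 genes lie at 3.99 and 4.67 with TCR and at -1.13 and -1.40 with the MEK inhibitor.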

How the data were processed

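RNA sequencing libraries (TruSeq Stranded mRNA, paired-end, 1 sequencer lane) were mapped by the authors to mm10 with STAR 2.4.2a, and reads were counted with Subread 1.5.0 on a RefSeq annotation. The authors kept genes expressed above a minimum, scaled the libraries by TMM in edgeR and deposited FPKM values for 11022 genes in 12 cultures, rounded to 2 decimals. These FPKM values were used as deposited, and raw counts were not used here. Whether strand was used in counting is not given in the sources used here. No value column was left without a sample.

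Log2(FPKM + 0.1) was fitted with limma 3.58.1 (R 4.3.3, empirical Bayes with an intensity trend) over the 4 groups, without a replicate term, and p-values were adjusted by the Benjamini-Hochberg method over all genes. FPKM had to serve in place of the counts that the study tested. The added 0.1 understates log2 changes of low genes. The members, gene lists, motifs and tests were chosen with earlier results of these data known. Members were all described. From each other list the genes past both thresholds in TCR against Unstimulated or in either inhibitor group against TCR were named, at most 6 per list and comparison, and for each member past both thresholds the 3 most similar genes. In the mitochondrial list all genes that rose with an inhibitor were named as well. Some genes were left out of the lists and are not reported here. The fit was tested on simulated data with known changes before use.

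The labels give replicates the numbers 1 to 3 in every group. Departures from the group mean were compared between cultures with the same number over 9899 genes. They correlated at 0.239 to 0.451 for TCR+PI3Kdi with TCR, 0.122 to 0.182 for TCR+MEKi with TCR and 0.137 to 0.149 for TCR+MEKi with TCR+PI3Kdi. Cultures with different numbers were not compared, so these values do not decide whether the numbers pair the cultures, which the labels do not state. The G and C correlations of TCR and TCR+PI3Kdi cultures also shared their sign in replicate 1 (0.375 and 0.305) and replicate 2 (-0.411 and -0.429). The part of base composition in these values was not tested. Effective depth was estimated from low FPKM values times transcript length, as the depth that brought them closest to whole reads. At that depth 68.1% to 83.0% of 37 to 144 low values per library came within 0.15 of a whole read. Chance gives 30% at a depth fixed beforehand and more after such a search, so these shares do not check the estimate. Counting intervals (exact Poisson, 95%) cover counting error only. Gene positions, exon bases and overlaps came from GENCODE M21 on GRCm38, and upstream windows from RefSeq. The overlaps therefore do not describe the RefSeq models behind the FPKM values. Transcripts matched to RefSeq hold 2189 exon bases for Bid and 1576 for Bad. Python 3.11.15 with NumPy 2.4.6, SciPy 1.17.1 and matplotlib 3.10.9 served for the rest. Alternatives were a pseudocount of 1 or 0.01, genes with a mean of at least 1 FPKM, TPM scale, quantile normalisation, a replicate block, compared groups only, and leaving out each culture.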

Additional observations from a re-analysis of the deposited data

Results flagged for a closer look

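For 7 members the effects of the inhibitors differed from each other by a direct test (limma, TCR+MEKi against TCR+PI3Kdi, 3 cultures each), the MEK inhibitor cultures being higher for all of them. The log2 differences were 1.39 for Bbc3 (adjusted p = 2.73e-05), 0.58 for Bcl2l1 (2.35e-06), 0.44 for Bid (0.000482), 0.38 for Bak1 (0.000789), 0.32 for Pmaip1 (0.0113), 0.25 for Bcl2l11 (0.00304) and 0.20 for Bax (0.0353). In all 7 genes every MEK inhibitor culture was above every PI3K inhibitor culture. The 7 were picked by a test that used these same cultures, so this separation adds no separate evidence. How many of all genes separate in this way is not given. Of the 11022 genes, 14.5% passed the same test with the higher level in TCR+MEKi and 14.4% with the higher level in TCR+PI3Kdi. The 1 called value, that of Bbc3, included TCR+PI3Kdi replicate 2 with about 41 reads, and stayed called without it.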

How the results depend on the processing

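Of 520 single-member log2 changes under alternatives, 478 kept direction and side of the threshold, 15 lost significance, 11 gained it and 16 reversed, 1 of which (Pmaip1) had been past the threshold. Members called with TCR numbered 3, and 5 on the TPM scale. With the MEK inhibitor 0 were called, and 1 on the TPM scale. Members past the threshold with the PI3K inhibitor numbered 5, and from 3 to 5 with 1 culture left out, 3 being the count without TCR+PI3Kdi replicate 2. On the TPM scale Bbc3 with TCR was -0.11, Pmaip1 with TCR -0.16, Bax with the PI3K inhibitor 0.093 and Bak1 0.086, Mcl1 with the MEK inhibitor 0.19 and between inhibitors 0.0048. By quantile normalisation Bax with the PI3K inhibitor was 0.063, Bad -0.063, and Mcl1 with the MEK inhibitor 0.069. Dividing by each library's sum moves all genes of a comparison by 1 amount, and for the quantile values the cause was not tested. Leaving out 1 culture, Mcl1 with the PI3K inhibitor ran from -0.042 to 0.039, Bad from -0.23 to 0.33, Bid with the MEK inhibitor from -0.012 to 0.11, and Bcl2 between inhibitors from -0.0025 to 0.12. Adding Bcl2a1b and Bcl2a1d, chosen after seeing the data, moved the ratio of survival to BH3-only sums in TCR cultures from 2.55 to 6.35. With a replicate block the counts past the threshold were 9, 5, 6 and 7 in the 4 comparisons and those called 3, 0, 0 and 1, as without it, so treating same-numbered cultures as pairs changed no count. For TCR against Unstimulated the same-numbered cultures correlated at 0.105, 0.153 and 0.0037, which leaves their pairing undecided too. Depth limits Bbc3 and Bad most, which rested on as few as 41 and 67 reads.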
